A study of Homo sapiens with 12 samples.

Results

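The genes described here were chosen by symbol, and most make ribosomes or build the nucleolus. They were the protein-coding genes of the count table whose symbols belong to the UTP, NOP, RRP, NOL, POLR1, and IMP families, together with named factors such as NCL, NPM1, FBL, DKC1, BOP1, PES1, TCOF1, and UBTF. There were 58 of them among 58735 genes. All 58 had counts, and 56 passed the filter on low counts in each comparison of groups. NOL4 and NOP2 did not, with 8 and 95 counts over all libraries.

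The cells were TIGK, keratinocytes of the human gingiva that were made immortal with telomerase, so every library came from 1 cell line. All cultures had 48 mM glucose in a base medium made without Arg. They were given either 500 μM Arg or no added Arg (control) for 24 or 48 h, in 3 replicates per group named A, B, and C. Poly(A) RNA was sequenced, so ribosomal RNA itself was not measured.

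Ribosome synthesis starts in the nucleolus, where RNA polymerase I transcribes the ribosomal DNA into a long precursor. Small nucleolar ribonucleoproteins (snoRNPs) modify this precursor, the small subunit processome folds and cuts its early part, and a separate set of factors assembles the large subunit. The pathway uses much of a growing cell's energy, and its activity is known to follow growth signals such as MYC and the supply of amino acids.

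The libraries held 16542243 to 19040964 counts, and the members took 0.900 to 1.19% of them. All 8 keratinocyte markers were found in every library, with a summed level of 42600 to 54811 CPM (counts scaled to a common library total). The summed levels of the fibroblast, endothelial, immune, and melanocyte markers were 30.2 to 103, 0.757 to 6.41, 1.20 to 3.99, and 1.03 to 3.06 CPM, and TYR was at 0. Control library B at 48 h stood apart from its replicates, with a chi-square per degree of freedom of 20.9 and 23.9, against 3.66 to 12.5 over the other 10 replicate pairs. It also held the highest mitochondrial share, 1.55% of counts. Control library B at 24 h stood apart for the members, as given below. The labels do not say that replicates were separate cultures beyond their letters, so p-values measure the spread between these libraries.

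Levels of different members were compared per length, as RPKM, which divides the CPM by the exonic length in kilobases. NPM1, which shuttles between the nucleolus and the cytoplasm, was the highest at 702 RPKM over the 12 libraries. NCL, the abundant nucleolar phosphoprotein nucleolin, followed at 223. FBL, the methyltransferase of the box C/D snoRNPs, stood at 156, and NOP10, the smallest protein of the box H/ACA snoRNPs, at 138. NOLC1, a phosphoprotein chaperone of snoRNPs, was at 90.9 RPKM. The lowest were NOL4 at 0.00651, NOP2 at 0.0926, and NOL12 at 0.761 RPKM. NOP2 and NOL12 each overlap another protein-coding row on the same strand that held 0 counts, AC006064.6 and Z83844.1, and reads that fit both rows cannot be told apart. RRS1 overlaps the protein-coding row AC009879.2 on its own strand, also with 0 counts. UTP14C and NOP9 overlap ALG11 and LTB4R2 on the same strand, with 1899 and 249 counts. NPM1 has 45 annotated pseudogenes, which held 9555 counts against 582545 for NPM1.

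The summed level of the members was lower at 48 h than at 24 h, with and without Arg. In CPM, it was 11676, 10256, and 11663 in control libraries A, B, and C at 24 h, and 11836, 12129, and 11146 with Arg. At 48 h, it was 9172, 8800, and 9433 in the control libraries, and 9089, 9614, and 9725 with Arg. All 6 libraries at 48 h lay below all 6 at 24 h, and control library B was the lowest of the 24 h libraries. On the log2 scale, the median member in that library stood at -0.01 relative to its own mean over the 12 libraries, whereas it stood at 0.12 to 0.20 in the other 24 h libraries and at -0.19 to -0.09 in those of 48 h. The sum leans on the most abundant members, whereas the median weighs each member alike. NPM1 alone averaged 3150 CPM at 24 h and 2301 CPM at 48 h in the control, and 3081 and 2220 CPM with Arg. In these bulk samples, fewer cells of a type and less RNA per cell cannot be told apart.

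Markers of other cell types also moved with time. The summed level of the 6 fibroblast markers was 34.2 to 54.4 CPM in the control libraries and 30.2 to 41.1 CPM in the Arg libraries at 24 h, and 85.4 to 103 and 72.7 to 100.3 CPM at 48 h. COL1A1 and DCN, which code for collagen and a matrix proteoglycan, made up most of it, and both rose in each comparison of the times by edgeR's quasi-likelihood test with Benjamini–Hochberg adjustment. COL1A2, another collagen gene of fibroblasts, stayed at 0 to 0.0576 CPM, and COL3A1 at 0 to 0.210 CPM. LUM and PDGFRB passed in neither comparison. Their log2 fold changes were 1.06 and -0.11 without Arg, and 1.11 and -0.16 with Arg. The 4 endothelial markers summed to 0.757 to 3.01 CPM at 24 h and 4.09 to 6.41 CPM at 48 h, where KDR rose in both comparisons, VWF rose with Arg, and CDH5 was at 0 in every library at 48 h. The melanocyte markers summed to 1.03 to 1.91 CPM at 24 h and 1.84 to 3.06 CPM at 48 h, and the sums of the immune markers overlapped between the times. PMEL and CD14, the 1 gene tested of each list, did not pass. Of the 8 keratinocyte markers, KRT17 and SFN fell and TP63 rose in both comparisons, and LAMB3 rose with Arg. At 24 h, DCN was lower with Arg than in the control (log2 fold change -0.70, SE 0.18, adjusted p = 0.029 in the same edgeR test). The part of these markers in the changes of the members was not tested.

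**Figure D1:**
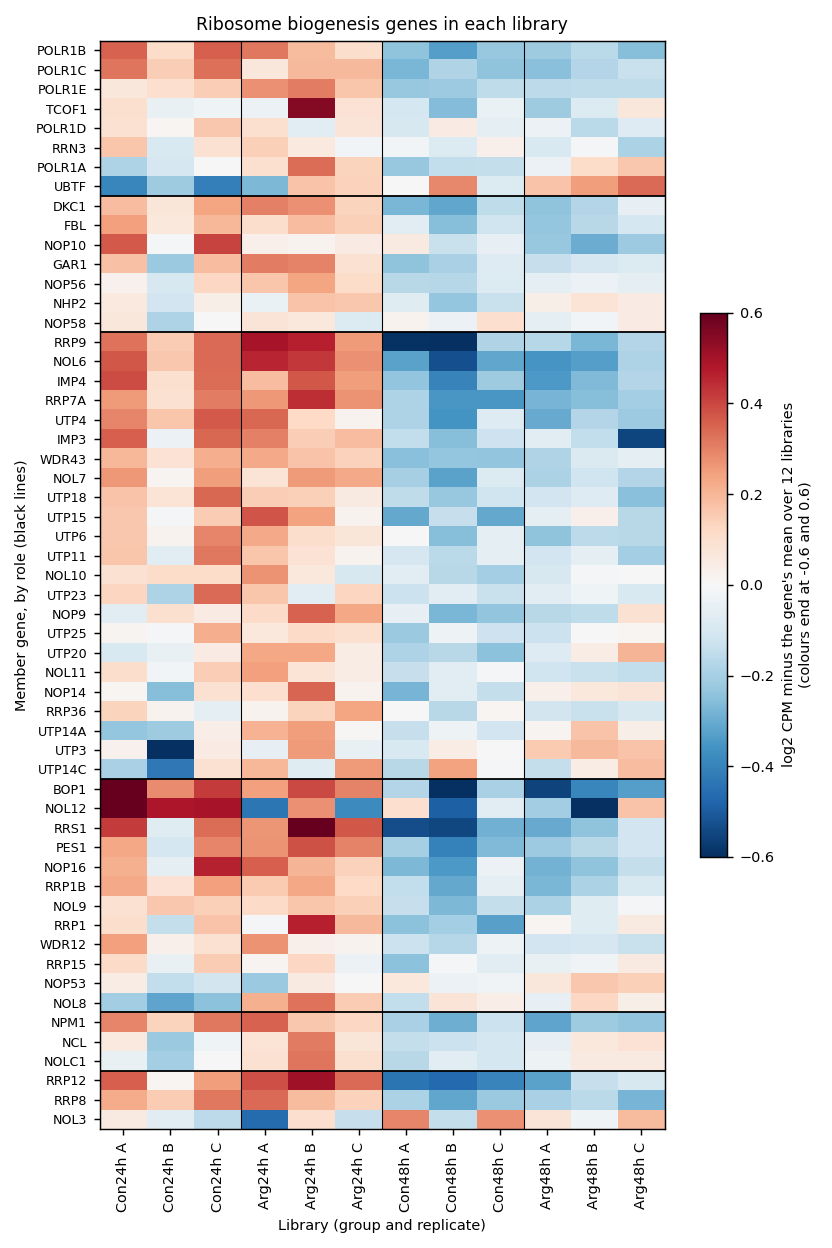
Each row is a member gene, each column a library, and the color gives the log2 CPM minus the gene's own mean over the 12 libraries, with black lines between the roles. Most rows turn from red in the 24 h columns to blue in the 48 h columns, UBTF runs the other way, and control library B at 24 h is paler than its replicates.

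Without Arg, 48 of 56 members had lower values at 48 h than at 24 h, with a median log2 fold change of -0.26 against 0.01 for all genes tested. By edgeR's quasi-likelihood test with Benjamini–Hochberg adjustment, 26 members fell and 1 rose at an adjusted p under 0.05. Among all genes tested, 10% fell and 9.90% rose. The 3 libraries at 48 h lay below the 3 at 24 h for 30 members and above them for 2, where the shares over all genes were 19.7% and 19.2%. The count of members that fell was 13 without control library A at 24 h, where 2.74% of all genes fell, and 13 without library C, where 3.36% fell. It was 39 without both control libraries B, where 16.4% of all genes fell.

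With Arg, 52 of 56 members had lower values at 48 h, and the median log2 fold change was again -0.26, against 0.00 for all genes tested. The same test called 34 members lower and 0 higher, where 14.0% of all genes fell and 14.3% rose. At an unadjusted p under 0.05, 2 members were higher and 36 lower, against 19.3% and 19.2% of all genes. DESeq2 called 0 members higher at an adjusted p under 0.05, where it called 2026 of 14398 genes higher. The groups did not overlap for 35 members in the lower direction and 1 in the higher direction, against 21.2% and 21.1% of all genes.

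The 2 comparisons of the times share no library. Of the members that fell, 24 did so in both, which is 92.3% of the control list and 70.6% of the Arg list. Over all genes tested, the 1028 that fell in both made up 72.0% and 51.3% of the lists. Across the 56 members, the 2 sets of log2 fold changes had a Pearson r of 0.82 and a Spearman rho of 0.82, compared with 0.68 and 0.67 across all genes. These are correlations across genes, which are not independent replicates. For 24 of 57 members, all 6 libraries at 48 h lay below all 6 at 24 h, and for 0 they lay above, against 7.42% and 7.13% of all genes.

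**Figure D2:**
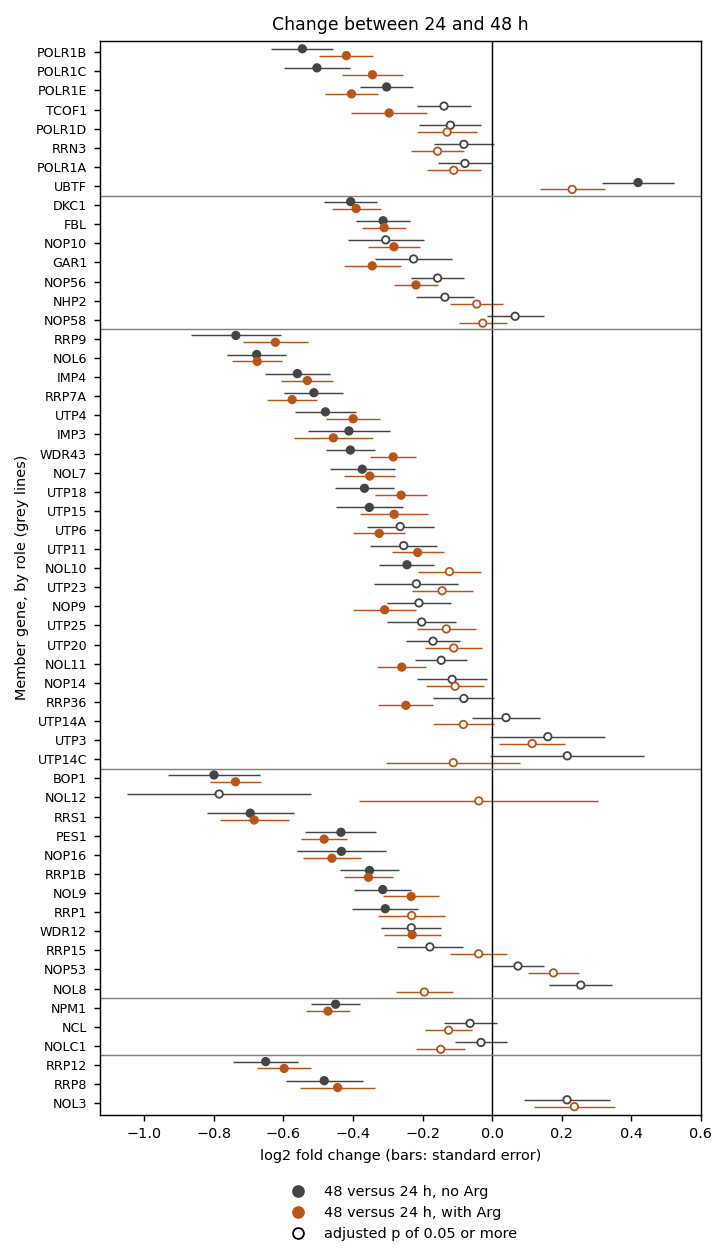
Points give each member's log2 fold change from 24 to 48 h without Arg (gray) and with Arg (orange), bars its standard error, and filled points an adjusted p under 0.05, with members grouped by role. BOP1, RRP9, NOL6, RRS1, and RRP12 lie at -0.80 to -0.60 in both comparisons, NOL12 lies among them without Arg as an open point, and UBTF is the filled point on the right.

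Promoter sequences were available for 48 of the 58 members in RefSeq (GRCh38.p14), as windows from 250 bases before to 50 after the start. The motifs CACGTG, TCTCGCGA, and TATAAA, which do not overlap each other, were searched on both strands. CACGTG, the E-box that MYC and related factors can bind, was in the window of 16 of 48 members (33.3%). It was in 10.1% of the promoters of 10723 genes tested and in 7.43% of all 27305 promoters. Among the members that fell in both comparisons it was in 9 of 19 (47.4%), and among the other members in 7 of 29 (24.1%). The other members include NOL4 and NOP2, which were not tested in those comparisons. TCTCGCGA, a motif common in promoters of widely expressed genes, was in 5 of 48 members (10.4%), 2.35% of genes tested, and 1.19% of all promoters. TATAAA, the TATA box, was in 2 members (4.17%), 5.67% of genes tested, and 11.95% of all promoters. A match is a description of the letters, and binding was not measured. The promoters of IMP4, UTP18, and NOL6 are shown from 250 bases before to 30 after the start because these genes fell at 48 h and hold CACGTG, which is given in capitals. That of UBTF, which rose in the control cells, is shown as a member without the motif. IMP4, UTP18, and NOL6 were picked for holding the motif, so they do not stand for all members that fell. NPM1, DKC1, and POLR1B also fell in both comparisons and hold no CACGTG in their windows. NOL8, which passed in neither comparison, holds 1.
IMP4, chr2:130342647-130342926, plus strand: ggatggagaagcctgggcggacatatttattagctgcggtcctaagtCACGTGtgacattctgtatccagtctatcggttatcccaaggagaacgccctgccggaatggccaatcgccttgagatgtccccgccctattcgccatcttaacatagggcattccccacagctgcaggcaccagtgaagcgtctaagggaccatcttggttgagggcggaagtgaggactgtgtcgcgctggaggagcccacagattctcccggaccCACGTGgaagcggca
UTP18, chr17:51260296-51260575, plus strand: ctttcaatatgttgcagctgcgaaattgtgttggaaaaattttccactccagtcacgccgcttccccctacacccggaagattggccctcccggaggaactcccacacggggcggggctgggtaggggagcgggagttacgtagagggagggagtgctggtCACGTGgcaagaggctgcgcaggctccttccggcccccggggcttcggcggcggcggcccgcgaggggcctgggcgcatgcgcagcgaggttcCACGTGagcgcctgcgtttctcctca
NOL6, chr9:33473895-33474174, minus strand: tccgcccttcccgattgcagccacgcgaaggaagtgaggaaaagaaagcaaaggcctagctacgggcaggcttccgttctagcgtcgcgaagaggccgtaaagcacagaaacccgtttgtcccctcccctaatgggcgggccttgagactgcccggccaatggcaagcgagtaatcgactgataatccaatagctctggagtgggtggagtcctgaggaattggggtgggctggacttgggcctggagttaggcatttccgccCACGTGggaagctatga
UBTF, chr17:44220853-44221132, minus strand: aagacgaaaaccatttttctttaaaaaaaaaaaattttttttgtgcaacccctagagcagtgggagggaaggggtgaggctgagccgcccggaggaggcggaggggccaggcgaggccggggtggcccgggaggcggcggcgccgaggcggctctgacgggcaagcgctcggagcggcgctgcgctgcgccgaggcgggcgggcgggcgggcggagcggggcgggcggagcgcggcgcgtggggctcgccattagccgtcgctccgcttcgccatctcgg
IMP4 and UTP18 each hold 2 copies in this stretch, NOL6 holds 1 just after the start, and UBTF holds 0.

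Among the small subunit processome genes, 11 of 23 fell from 24 to 48 h without Arg and 15 of 23 with Arg, and 0 rose. Of all genes tested, 10% fell and 9.90% rose without Arg, and 14.0% fell and 14.3% rose with Arg. NOL6, a protein of the UTP-C part of the processome whose promoter is shown above, stood at 288, 249, and 281 CPM in the control libraries at 24 h and at 177, 154, and 179 CPM at 48 h. With Arg, it stood at 305, 298, and 269 CPM at 24 h and 173, 177, and 196 CPM at 48 h. All 48 h libraries lay below all 24 h libraries. NOL6 fell by 37.5% without Arg (log2 fold change -0.68, SE 0.08, adjusted p = 0.0013 by edgeR's quasi-likelihood test with Benjamini–Hochberg adjustment) and fell by 37.4% with Arg (-0.68, SE 0.07, adjusted p = 1.07e-06).

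RRP9, which binds the U3 snoRNA that guides early cuts of the precursor, was at 41.5, 36.8, and 41.9 CPM in the control libraries at 24 h and 21.7, 21.2, and 29.1 CPM at 48 h. Its log2 fold change was -0.74 ± 0.13 (SE) without Arg and -0.62 ± 0.09 with Arg, and neither pair of groups overlapped. IMP4, part of the U3 complex with IMP3 and MPHOSPH10, went from 155, 127, and 149.8 CPM to 101, 89.6, and 102 CPM in the control cells. Its log2 fold change was -0.56 without Arg and -0.53 with Arg. UTP18, whose promoter is also shown above, changed by -0.37 and -0.26 on the log2 scale. Each of these falls passed the test.

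RRP7A, UTP4, IMP3, WDR43, NOL7, and UTP15 also fell in both comparisons, with log2 fold changes of -0.58 to -0.28. UTP4 overlaps CHTF8 on the opposite strand, with 33770 counts, and SNTB2 on its own strand. NOL10 fell without Arg and had a value of -0.12 with Arg that did not pass. NOL11, NOP9, RRP36, UTP6, and UTP11 passed the test with Arg, at -0.32 to -0.21, and had values of -0.26 to -0.08 without Arg that did not pass. The difference between the treatments was tested for each of them in a model of all 12 libraries and did not pass for any (adjusted p of 0.845 to 0.977 by edgeR's quasi-likelihood test with Benjamini–Hochberg adjustment).

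Large subunit assembly had 7 of 12 members that fell in each comparison and 0 that rose. The shares of all genes that fell and rose were 10% and 9.90% without Arg, and 14.0% and 14.3% with Arg. BOP1, which forms the PeBoW complex with PES1 and WDR12, had the lowest log2 fold change of the members in both comparisons. It stood at 349, 265, and 291 CPM in the control libraries at 24 h and at 193, 136, and 190.0 CPM at 48 h. With Arg, the values were 258, 287, and 268 CPM at 24 h and 148, 166, and 173 CPM at 48 h. The groups did not overlap in either case, and the log2 fold changes were -0.80 ± 0.13 and -0.74 ± 0.07 (SE), with adjusted p-values of 0.0032 and 4.32e-07 by edgeR's quasi-likelihood test with Benjamini–Hochberg adjustment.

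PES1 fell in both comparisons, with changes of -26.0% and -28.5%, whereas WDR12 fell by 14.7% with Arg. The change of WDR12 without Arg, -14.9%, did not pass (adjusted p = 0.076 in the same edgeR test with Benjamini–Hochberg adjustment). Without both control libraries B, WDR12 passed there at -0.25 on the log2 scale, where 16.4% of all genes fell. RRS1, needed for the 5S particle to join the large subunit, was at 95.9, 68.1, and 90.6 CPM at 24 h and 49.5, 48.9, and 58.6 CPM at 48 h in the control cells. It fell by 38.3% without Arg and fell by 37.8% with Arg, and it is a row with the same-strand overlap given above. NOP16, NOL9, the polynucleotide kinase of the large subunit precursor, and RRP1B fell in both comparisons as well, with changes of -27.3 to -14.9%. RRP1 fell without Arg, and its value with Arg, -0.23 on the log2 scale, did not pass. NOP53, RRP15, NOL8, and NOL12 passed in neither comparison.

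In the snoRNP core, DKC1, the pseudouridine synthase of the box H/ACA particles, and FBL fell in both comparisons. DKC1 stood at 276, 254, and 285 CPM in the control libraries at 24 h and 200.2, 195, and 218 CPM at 48 h, and it fell by 24.6% without Arg and fell by 23.7% with Arg. FBL went from 399.7, 352, and 387 CPM to 323, 282, and 310.2 CPM in the control cells, and it fell by 19.5% without Arg and fell by 19.4% with Arg. For both genes, every 48 h library lay below every 24 h library. GAR1, NOP10, and NOP56 fell with Arg, with changes of -21.3%, -17.8%, and -14.1%. Their control values of -14.5%, -19.1%, and -10.3% did not pass. Without both control libraries B, each passed in the control, at -0.34, -0.39, and -0.20 on the log2 scale. In that fit, 16.4% of all genes fell. The difference between the treatments passed for 0 members in the model of all 12 libraries. NHP2 and NOP58 passed in neither. NOP58, the partner of NOP56 in the box C/D particle, changed by 0.07 ± 0.08 and -0.03 ± 0.07 (log2 fold change and SE).

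The 3 nucleolar phosphoproteins differed in their values. NPM1 (ENSG00000181163, chromosome 5, 171387116 to 171411137, plus strand, GRCh38) stood at 3249.7, 2903, and 3297 CPM in the control libraries at 24 h and at 2315, 2165, and 2422 CPM at 48 h. With Arg, it was at 3391, 2962, and 2890.2 CPM and then at 2131, 2282, and 2247 CPM. No 48 h library reached the lowest 24 h library, and NPM1 fell by 26.8% without Arg and fell by 27.9% with Arg, with adjusted p-values of 0.0029 and 2.1e-05 by edgeR's quasi-likelihood test with Benjamini–Hochberg adjustment. NCL had log2 fold changes of -0.06 ± 0.08 and -0.13 ± 0.07 (SE), and NOLC1 of -0.03 ± 0.07 and -0.15 ± 0.07, and neither passed the test at either treatment. Of the remaining members, RRP12, an export factor of both subunits, and RRP8, a methyltransferase of the large ribosomal RNA, fell in both comparisons. RRP12 went from 119, 93.6, and 111 CPM to 68.3, 66.9, and 70.3 CPM in the control cells. It fell by 36.3% without Arg and fell by 33.9% with Arg. NOL3, which is known as a repressor of apoptosis rather than as a ribosome factor, had values of 0.22 and 0.24 on the log2 scale that did not pass.

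The RNA polymerase I genes split. POLR1B, the second-largest subunit, POLR1C, a subunit shared with RNA polymerase III, and POLR1E fell in both comparisons, with log2 fold changes of -0.55 to -0.30 without Arg and -0.42 to -0.34 with Arg. POLR1B stood at 102, 85.8, and 102 CPM in the control libraries at 24 h and 67.3, 63.1, and 67.9 CPM at 48 h, without overlap. POLR1A, the largest subunit, had log2 fold changes of -0.08 and -0.11, and POLR1D and RRN3, the initiation factor TIF-IA, had values of -0.16 to -0.08. None of these 3 passed the test. TCOF1, the Treacher Collins protein treacle, passed with Arg at -0.30 (adjusted p = 0.049 by edgeR's quasi-likelihood test with Benjamini–Hochberg adjustment). Its groups overlapped, since Arg library B at 24 h read 367 CPM and the other Arg libraries 243 and 266 CPM at 24 h and 215 to 262 CPM at 48 h. RRN3 overlaps PDXDC1 and POLR1C overlaps XPO5 on the opposite strand, and the strand setting of the counting is not given in the sources used here.

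UBTF, which keeps the ribosomal DNA open and recruits RNA polymerase I, was the 1 member that rose with time in the control cells. It stood at 102, 116, and 101 CPM at 24 h and 135, 164, and 127 CPM at 48 h, and all 48 h libraries lay above all 24 h libraries. It rose by 33.8% (log2 fold change 0.42, SE 0.10, adjusted p = 0.016 by edgeR's quasi-likelihood test with Benjamini–Hochberg adjustment). Without control library A or C at 24 h, the adjusted p was 0.085 or 0.082. With Arg, UBTF was at 111, 151, and 148 CPM at 24 h and 151, 160.2, and 170.2 CPM at 48 h, where the groups met near 151 CPM. That change, 0.23 ± 0.09 (SE), did not pass, and the difference between the 2 changes did not pass either (adjusted p = 0.87 in the same edgeR test).

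**Figure D3:**
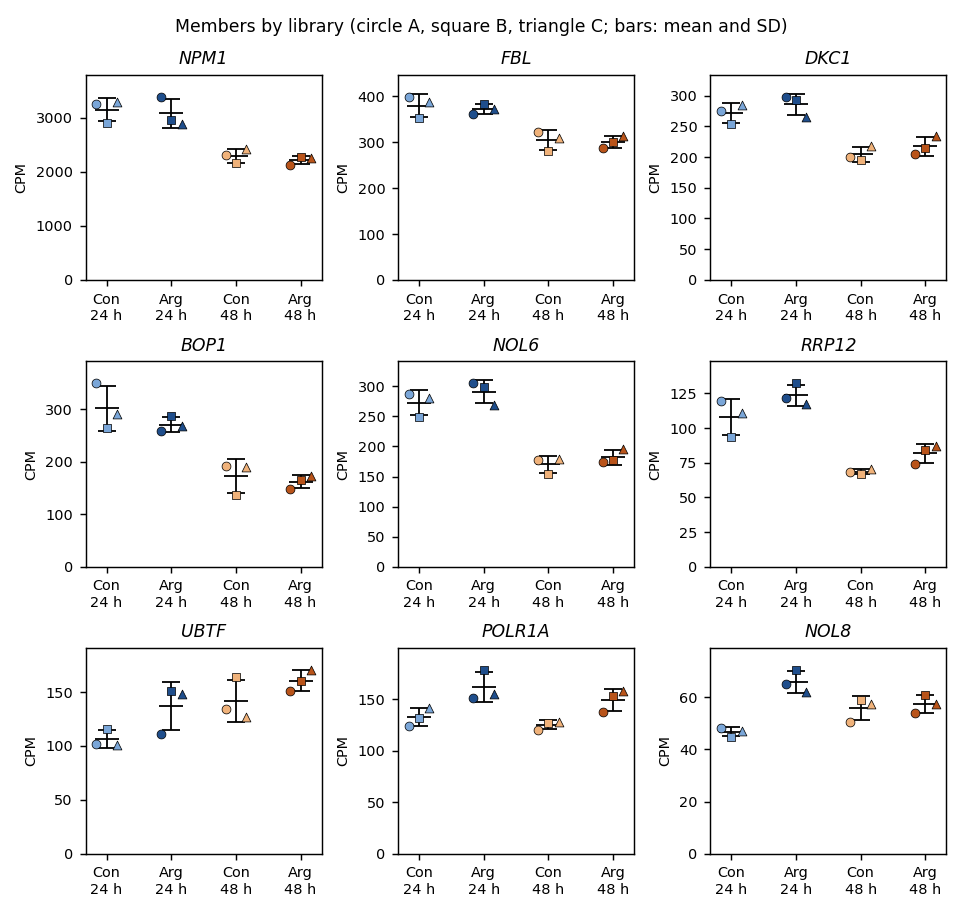
Each panel shows 1 member in CPM (y axis from 0) by group, with circles, squares, and triangles for libraries A, B, and C and black bars for the mean and SD of 3 libraries. NPM1, FBL, DKC1, BOP1, NOL6, and RRP12 step down from 24 to 48 h in both treatments, and the means of UBTF, POLR1A, and NOL8 at 24 h are higher with Arg than in the control, with overlap between the groups for UBTF.

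The same comparison was made for 112 other genes of the pathway that the symbol rule left out, among them TWISTNB, CD3EAP, and ZNRD1, older names of POLR1F, POLR1G, and POLR1H. Of 111 tested without Arg, 40 fell and 0 rose, and of 110 tested with Arg, 51 fell and 4 rose. These were 36.0% and 46.4% that fell, where 10% and 14.0% of all genes did so, and 9.90% and 14.3% of all genes rose. The small subunit list had 15 of 35 that fell without Arg and 17 of 35 with Arg, and the large subunit list had 18 of 45 and 22 of 44. Of the other RNA polymerase I factors, 4 of 17 and 7 of 17 fell, and of the RNA exosome, which trims precursor ends, 3 of 14 and 5 of 14. The 4 genes that rose with Arg were EFL1, BAZ2A, MPHOSPH10, and MDN1, named here after their values were seen.

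MYC, the transcription factor known to drive ribosome synthesis genes, stood at 626, 471, and 725 CPM in the control libraries at 24 h and 374, 323, and 392 CPM at 48 h. With Arg, it was at 544, 581, and 512 CPM and then at 292, 306, and 328 CPM. Every 48 h library lay below every 24 h library, and control library B was the lowest of the 24 h libraries, as it was for the sum of the members. MYC had log2 fold changes of -0.74 (SE 0.13) and -0.82 (SE 0.07), with adjusted p-values of 0.0042 and 6.42e-08 by edgeR's quasi-likelihood test with Benjamini–Hochberg adjustment. Its part in the change of the members was not tested.

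**Figure D4:**
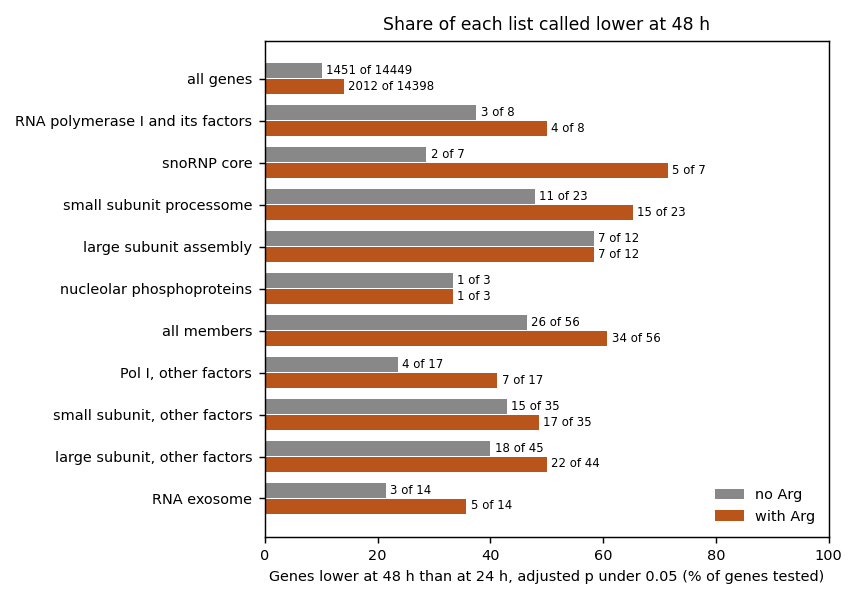
Bars give the share of each list that was lower at 48 h than at 24 h at an adjusted p under 0.05, without Arg (gray) and with Arg (orange), with the counts beside them. All members stand at 26 of 56 and 34 of 56, above the bars for all genes, 1451 of 14449 and 2012 of 14398.

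Arg was then compared with the control at each time. At 24 h, 35 of 56 members had higher values with Arg, and the median log2 fold change was 0.03, against 0.00 for all genes tested. By edgeR's quasi-likelihood test with Benjamini–Hochberg adjustment, 2 members rose and 0 fell, where 2.79% of all genes rose and 3.84% fell. At an unadjusted p under 0.05, 8 members were higher and 2 lower, against 10.8% and 11.9% of all genes. The 8 became 3 without Arg library B, where 7.68% of all genes were higher. DESeq2 with adjustment called 3 members higher and 0 lower, where it called 494 and 645 of 14279 genes. The groups parted for 6 members in the higher direction and 1 in the lower, against 12.9% and 13.4%. The median was -0.02 without control library B at 24 h, so the direction of the median rested on that library.

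NOL8 (ENSG00000198000, chromosome 9, 92297358 to 92325636, minus strand, GRCh38), a nucleolar protein tied to large subunit assembly, had the largest rise. It was at 48.4, 45.0, and 47.2 CPM in the control libraries and 65.0, 70.4, and 62.2 CPM with Arg, with no overlap. NOL8 rose by 40.5% (log2 fold change 0.49, SE 0.09, adjusted p = 0.0033 by edgeR's quasi-likelihood test with Benjamini–Hochberg adjustment). The call held without any 1 of the 6 libraries, with adjusted p-values of 0.0049 to 0.029. It overlaps CENPP on the opposite strand, which held 2100 counts against 12268 for NOL8. UBTF was the other member called, with a rise of 28.6% (0.36 ± 0.11, adjusted p = 0.047 in the same edgeR test). Its groups overlapped, since Arg library A read 111 CPM and control library B 116 CPM, and the call was lost without control library A, control library C, Arg library B, or Arg library C (adjusted p of 0.17 to 0.23).

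The other members with the smallest p-values at 24 h did not pass the adjustment. POLR1A stood at 124, 132, and 142 CPM in the control libraries and 151, 178, and 155 CPM with Arg, without overlap (0.28 ± 0.09, adjusted p = 0.059 by edgeR's quasi-likelihood test with Benjamini–Hochberg adjustment). NOLC1 was at 348, 312, and 360.4 CPM and 383, 449.8, and 385 CPM, without overlap, and NCL at 1601, 1316, and 1508 CPM and 1625, 1909, and 1618 CPM, also without overlap. The changes of NOLC1 and NCL were 0.25 and 0.22 on the log2 scale. NOL12 had the lowest value, -0.81 ± 0.28 (SE), from levels of 1.80 to 4.39 CPM. NOP10 had a value of -0.23, where control library B read 74.9 CPM beside 97.4 and 100.1 CPM in its replicates and 76.6 to 78.0 CPM with Arg. Without control library B, NOP10 passed the test in the lower direction at -0.36.

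At 48 h, 37 of 56 members had higher values with Arg, with a median log2 fold change of 0.05 against 0.00 for all genes tested. By edgeR's quasi-likelihood test with Benjamini–Hochberg adjustment, 0 members rose and 0 fell, where 0% of all genes rose and 0.117% fell. DESeq2 also called 0 members in either direction, where it called 40 of 14562 genes higher and 144 lower. At an unadjusted p under 0.05, 11 members were higher and 1 lower, against 5.94% and 7.49% of all genes. The 11 became 6 without control library A and 6 without Arg library B, where 3.24% and 3.91% of all genes were higher. The groups did not overlap for 13 members in the higher direction and 1 in the lower, against 8.56% and 8.51%. The 11 were POLR1A, RRP1, UTP20, RRP12, NOP14, NHP2, NCL, RRS1, UTP3, NOLC1, and WDR43, with log2 fold changes of 0.13 to 0.26, and the 1 lower was NOP10 at -0.21.

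This count turned on control library B. Without it, 8 members rose and 2 fell at an adjusted p under 0.05, where 7.76% of all genes rose and 8.17% fell. The 8 were UBTF, NOP14, RRP1, POLR1A, UTP20, RRP12, NCL, and NOLC1, and the 2 were BOP1 and NOP10. UBTF in that library read 164 CPM, within the 151 to 170.2 CPM of the Arg libraries, whereas control libraries A and C read 135 and 127 CPM.

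The 2 comparisons with Arg share no library with each other. The values of 29 members were higher with Arg at both times, and those of 13 were lower at both, which is 51.8% and 23.2% of the 56 tested, against 34.1% and 33.5% of all genes tested at both times. At an unadjusted p under 0.05, NCL, NOLC1, POLR1A, and UTP20 were higher at both times, and NOP10 was lower at both, where 2.24% of all genes were higher and 3.92% lower by the same rule. UTP20, a scaffold of the processome, read 96.9, 100.3, and 107 CPM in the control and 122, 122, and 107 CPM with Arg at 24 h, where the groups met near 107 CPM. At 48 h, it read 90.7, 92.0, and 87.1 CPM in the control and 98.0, 107, and 119 CPM with Arg, without overlap. POLR1A at 48 h read 121, 127, and 128 CPM in the control and 138, 153, and 158 CPM with Arg, again without overlap.

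**Figure D5:**
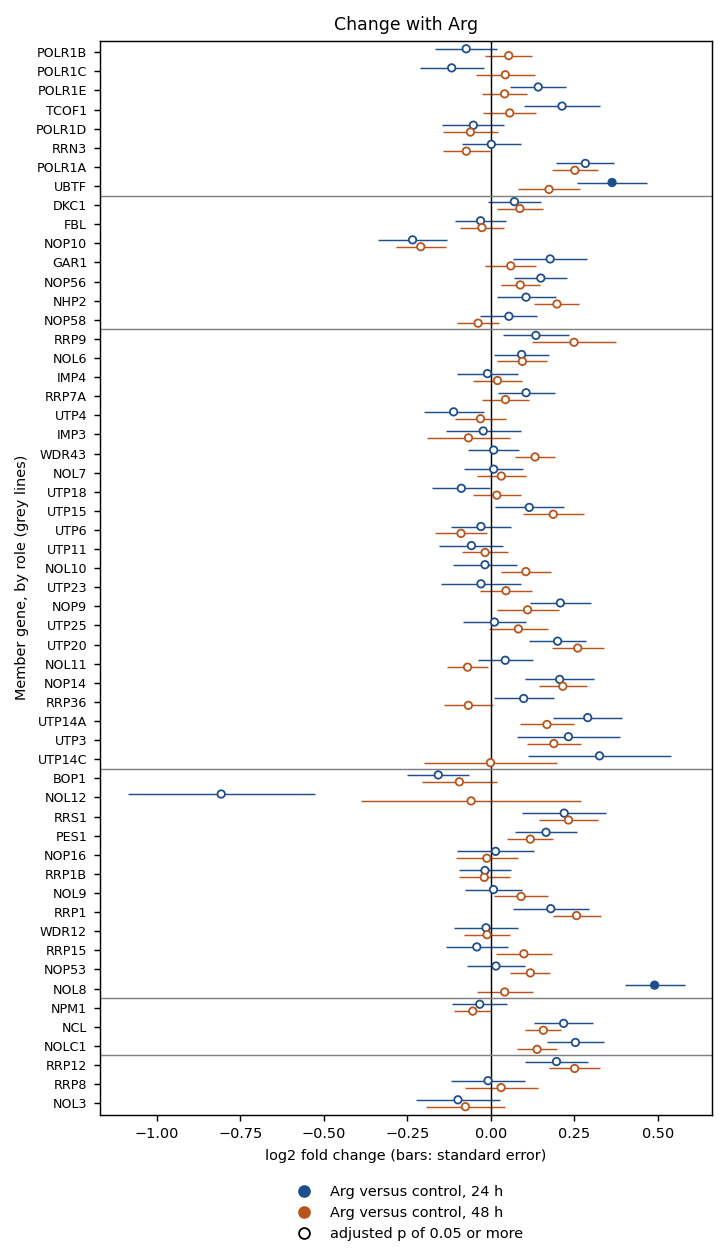
Points give each member's log2 fold change with Arg at 24 h (blue) and 48 h (orange), bars its standard error, and filled points an adjusted p under 0.05. Most points lie near 0, NOL8 and UBTF at 24 h are the 2 filled points, and NOL12 has the widest bars.

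Among the other pathway genes, 3 rose and 1 fell with Arg at 24 h, of 111 tested, and 0 passed at 48 h of 110 tested. Among all genes, 2.79% rose and 3.84% fell at 24 h, and 0% rose and 0.117% fell at 48 h. At an unadjusted p under 0.05, 11 of the other pathway genes were higher at 48 h and 6 lower, against 5.94% and 7.49% of all genes. MYBBP1A, a nucleolar protein that binds MYB and RNA polymerase I factors, rose by 0.44 on the log2 scale (166 ± 7.71 to 226 ± 29.0 CPM, SD, n = 3). FCF1, a processome protein, rose by 0.34, MPHOSPH10 by 0.35, and POLR2H, a small subunit shared by the RNA polymerases, fell by 0.39, with adjusted p-values for the 4 genes of 0.0067 to 0.047 in the same edgeR test. MYC had values of -0.16 ± 0.11 at 24 h and -0.24 ± 0.08 (SE) at 48 h, and neither passed (adjusted p of 0.44 and 0.23 by edgeR's quasi-likelihood test with Benjamini–Hochberg adjustment). The comparisons with Arg share libraries with those of the times, so their values are given side by side only.

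Whether the Arg effect differed between the times was tested in a model of all 12 libraries, in which 57 members passed the filter. By edgeR's quasi-likelihood test with Benjamini–Hochberg adjustment, 0 members passed in either direction, where 0.0132% of all genes were higher and 0% lower. DESeq2 called 0 members as well, where it called 10 of 15148 genes higher and 13 lower. At an unadjusted p under 0.05, 1 member passed, against 6.87% of all genes. This was NOL8, whose effect at 48 h was lower than at 24 h by 0.45 on the log2 scale (SE 0.12, adjusted p = 0.35). It rose with Arg at 24 h, whereas at 48 h it read 50.6, 59.2, and 57.6 CPM in the control and 54.1, 61.0, and 57.5 CPM with Arg, and the groups overlapped.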

How the data were processed

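Poly(A) RNA-seq libraries of TIGK cells at 48 mM glucose, given 500 μM Arg or none over 24 or 48 h, were grouped by their labels, with 3 per group. Before the data were deposited, the authors used fastp to filter the reads, STAR to align them (GRCh38/hg38), and featureCounts to obtain counts per gene. The deposited values are raw counts, 1 column per library, and they were not normalized. The annotation release and the strand setting are not given in the sources used here.

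All genes were fitted with edgeR 4.0.16 in R 4.3.3 (TMM normalization, the filterByExpr filter, quasi-likelihood test, no block), with Benjamini–Hochberg adjustment of the p-values across every gene in the fit. Each comparison used its own 2 groups, and the difference between the Arg effects used all 12 libraries. CPM values were computed on 1 TMM scale over the 12 libraries, and RPKM values from them with the exonic lengths of the table. CPM is relative, so a lower value is a lower share of the library's mRNA counts. A standard error is the log2 fold change divided by the square root of F. For a single gene, the smallest p of an exact permutation test with 3 libraries a group is 0.1. The scripts were tested on simulated data. Counts limit the precision of the low members, such as NOL12 with 592 counts over all libraries.

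The members and the pathway lists were chosen with earlier results of these data known. The members named were those of textbook role, those with the smallest p-values in each direction, those past an adjusted p of 0.05 (the 10 with the smallest p where a direction held more), and those with the highest and lowest levels. Members outside this rule are named where a role group is given in full. Alternatives were DESeq2 1.42.0, its size factors in edgeR, library size alone, other filters, a replicate block, an exonic length correction, 1 model of all libraries, and leaving out each library. No pairing by letter was assumed in the main fits. Same-letter deviations correlated at -0.061 to 0.135, highest for control libraries B at 24 and 48 h, and this cannot show whether libraries were paired.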

Additional observations from a re-analysis of the deposited data

Results flagged for a closer look

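NOL8 was singled out because its libraries moved in opposite directions with time in the 2 treatments. All 3 control libraries at 48 h (50.6, 59.2, and 57.6 CPM) lay above all 3 at 24 h (48.4, 45.0, and 47.2 CPM), whereas all 3 Arg libraries at 48 h (54.1, 61.0, and 57.5 CPM) lay below all 3 at 24 h (65.0, 70.4, and 62.2 CPM). The log2 fold changes were 0.25 ± 0.09 and -0.19 ± 0.08 (SE), and neither passed the adjustment (0.065 and 0.083 by edgeR's quasi-likelihood test). The difference between them was -0.45 on the log2 scale, with an unadjusted p of 0.0015 and an adjusted p of 0.35, and it lay between -0.51 and -0.40 when each library was left out in turn.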

How the results depend on the processing

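The direction of the median member and the count of members called were recomputed under each alternative. Without Arg, the count of members that rose from 24 to 48 h was 1, and it was 2 with library size alone, with all 12 libraries in 1 model, with the replicate block, and without both control libraries B, a setting added after the data were seen. Over all genes, 1845 of 14449, 1825 of 15148, 1969 of 14449, and 2177 of 14543 rose in these fits. The main fit had 1431 of 14449. Leaving out each library gave 0 to 2 members that rose, 13 to 31 that fell, and medians of -0.35 to -0.25. In the same fits, 2.85 to 10.7% of all genes rose and 2.74 to 11.6% fell. The replicate block gave 31 members that fell, where 2075 of 14449 genes fell, against 1451 in the main fit. UTP14C changed sign without both control libraries B, from 0.22 to -0.043, and it passed the test in neither. With Arg, 0 rose, and 2 rose with library size alone (median -0.20), 1 with no filter on low counts, and 1 with the replicate block. Over all genes, 2568 of 14398, 2084 of 26859, and 1926 of 14398 rose in these fits, against 2060 of 14398 in the main fit. Leaving out each library gave 0 to 3 members that rose and 25 to 33 that fell. There, 10.4 to 12.4% of all genes rose and 9.31 to 12.9% fell.

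With Arg against control at 24 h, 4 members rose with no filter on low counts, where 555 of 26579 genes rose. Leaving out each library at 24 h gave 1 to 3 members that rose and 0 to 1 that fell. There, 0.859 to 4.42% of all genes rose and 1.59 to 6.02% fell. At 48 h, leaving out each library gave 0 to 8 members that rose and 0 to 2 that fell. There, 0 to 7.76% of all genes rose and 0.0336 to 8.17% fell. For the difference between the times, the median ranged from -0.034 to 0.080 when each library was left out, and the highest value was that without control library B at 24 h. The replicate block changed no other count of members by over 1.5 times. Over all genes at 48 h it gave 43 that rose and 141 that fell, against 0 and 17 without it, and DESeq2 gave 40 and 144. The labels do not say whether libraries with the same letter share anything beyond it. Where a value moved, the cause was not tested.

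Library size alone shifted the split over all genes. Without Arg it called 1845 genes higher and 1008 lower at 48 h, against 1431 and 1451, and with Arg 2568 and 1453, against 2060 and 2012. Its median over all genes was 0.07 without Arg and 0.06 with Arg. Of 958 values of named members under the alternatives, 924 kept their direction and side of the threshold. Depth limits NOL12, UTP14C, NOP2, and NOL4, which had 592, 1188, 95, and 8 counts over the 12 libraries. The comparison of protein sequences was not run, since no protein table was used here.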
